A study of Mus musculus with 19 samples.

Results

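The 15727 autosomal recombination hotspots called in the Hum/SPRT hybrid were described here by 2 readouts at the same positions, the DMC1 signal that follows DNA breakage and the H3K4me3 mark that precedes it. They are the hotspots on chromosomes below 20 in the table of that genotype, out of 74327 hotspots in the 5 tables of the series. The table attributes 4485 of them (28.5%) to the humanized allele (Hum) and 9243 (58.8%) to the allele of SPRET/EiJ (SPRT), leaves 1924 (12.2%) unassigned, and marks 75 (0.477%) as KO, a value that the sources used here do not explain. DMC1 was measured in whole testes of male F1 hybrids of C57BL/6 (B6) with SPRET/EiJ (SPRT) or STUS mice whose Prdm9 alleles differed, and H3K4me3 in the hybrids with SPRT. Hum/SPRT animals came from B6 females heterozygous for the human PRDM9 B allele and SPRET/EiJ males, and were analysed at 10 weeks of age, so each carried 1 B6 and 1 SPRT homolog of every autosome. There was 1 DMC1 library, and 3 ChIP and 3 input samples for H3K4me3, for which the table gives a single column per readout. The labels number these samples rep1, rep1b and rep2, and do not say whether rep1b is a separate animal. The 2 other genotypes of this cross with both readouts, B6/SPRT and CAST/SPRT, carry the same SPRT allele beside the B6 or the CAST allele of Prdm9, and serve below only for comparison.

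PRDM9 binds DNA through its zinc fingers and its methyltransferase domain places H3K4me3 on the nucleosomes beside the bound motif. In meiosis SPO11 cuts some of these sites, the ends are resected, and the recombinase DMC1 coats the single strands until a partner is found, so the amount of DMC1 at a site goes with both how often it is cut and how long the break stays unrepaired. A hybrid carries 2 versions of each site. A PRDM9 allele that evolved on 1 genome has often eroded its own motifs there, and then marks and cuts mainly the homolog of the other species. H3K4me3 also stands at gene promoters, where other methyltransferases place it without PRDM9.

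Promoter windows show where both sources of the mark can meet in 1 readout. Of the 15727 hotspots, 35 had their center within a RefSeq promoter window (GRCm38.p6, 250 bases before to 50 after a gene start): 6 Hum, 21 SPRT and 8 unassigned. Of these 35, 20 lay below the line of DMC1 on H3K4me3 of their class, described below, as did 52.1% of all hotspots, and the median departure of the 35 was -0.50 on the log2 scale. Below the line were 2 of the 6 Hum (median departure 0.18), 12 of the 21 SPRT (-0.86) and 6 of the 8 unassigned hotspots (-0.47). The 250 bases before the start are printed for the hotspot of each of those 3 classes that lay farthest below its line, 5′ to 3′ on the strand of the gene, with the dinucleotide CG in capitals.
Ermp1, unassigned, chr19:29648416-29648665, minus strand: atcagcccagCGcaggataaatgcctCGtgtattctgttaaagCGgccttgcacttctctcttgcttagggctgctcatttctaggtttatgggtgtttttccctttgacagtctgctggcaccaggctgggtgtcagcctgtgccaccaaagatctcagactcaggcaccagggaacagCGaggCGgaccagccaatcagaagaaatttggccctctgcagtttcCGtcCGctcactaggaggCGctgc
Cryaa, SPRT, chr17:31677681-31677930, plus strand: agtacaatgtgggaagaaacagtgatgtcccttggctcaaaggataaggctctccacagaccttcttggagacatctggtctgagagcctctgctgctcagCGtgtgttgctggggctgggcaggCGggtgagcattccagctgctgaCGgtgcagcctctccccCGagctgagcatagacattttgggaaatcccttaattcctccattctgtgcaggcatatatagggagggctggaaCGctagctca
Gm31939, Hum, chr12:29937306-29937555, minus strand: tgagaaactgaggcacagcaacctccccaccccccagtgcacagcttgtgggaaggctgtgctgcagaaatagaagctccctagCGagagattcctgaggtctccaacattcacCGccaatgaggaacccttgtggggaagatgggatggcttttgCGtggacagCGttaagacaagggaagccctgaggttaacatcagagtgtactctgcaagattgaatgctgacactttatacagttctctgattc

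The full windows held 14 CG at Ermp1, 7 at Cryaa and 4 at Gm31939. The median was 7 over the 31396 promoters of the table, 94.8% of which hold at least 1. Over all 36 windows of the 35 hotspots it was lower, at 3.5, with 3.5 at Hum, 3.5 at SPRT and 4 at unassigned hotspots. At Ermp1, an endoplasmic reticulum metallopeptidase gene, the ChIP coverage was 2265 against an input of 32 and the DMC1 signal was 10.2. At Cryaa, which encodes alpha-A crystallin, the coverage was 215 against 22 and the DMC1 signal 9.83. At the Gm31939 start the coverage was 1418 against 31 and the DMC1 signal 48.9. The 3 hotspots departed from their lines by -3.38, -2.49 and -0.67. The windows were also searched on both strands for CCNCCNTNNCCNC, the degenerate motif long associated with human PRDM9. It was in 1 of the 6 windows of Hum hotspots, in none of the 22 of SPRT hotspots (1 hotspot lies in 2 windows) and in 1 of the 8 of unassigned hotspots, against 6.35% of all promoters. The Hum window that holds it belongs to Gm33727, whose hotspot had a DMC1 signal of 53.1 and a coverage ratio of 43.0, and it is printed with the match on the minus strand in capitals.
Gm33727, Hum, chr17:25518339-25518588, plus strand: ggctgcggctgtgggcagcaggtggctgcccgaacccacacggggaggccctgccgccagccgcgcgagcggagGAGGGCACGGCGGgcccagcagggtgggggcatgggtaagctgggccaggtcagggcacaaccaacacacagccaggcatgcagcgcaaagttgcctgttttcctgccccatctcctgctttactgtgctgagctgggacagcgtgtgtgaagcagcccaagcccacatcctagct

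The DMC1 signal comes from the hotspot caller and has no stated unit. It ran up to 528 over the 15727 hotspots with a median of 42.7, and the median was 55.0 at SPRT, 33.8 at Hum, 27.5 at unassigned and 14.1 at KO hotspots. H3K4me3 was taken as ChIP coverage over input coverage in the 1000 bp around the center, without correction for the depth of either, so that only its order and its ratios between hotspots have meaning. Its median was 12.6 at Hum, 10.7 at SPRT, 8.05 at unassigned and 1.80 at KO hotspots. Hum hotspots thus carried the higher median mark and SPRT hotspots the higher median DMC1 signal. The median ChIP coverage was 284 and the median input coverage 26, with 119 hotspots under 10 in the input and 3 without ChIP reads. A B6 share of the DMC1 reads was listed for all but 3928 hotspots. The number of reads behind it is unknown, whereas the B6 share of H3K4me3 rests on a median of 450 SNP-carrying reads. Shares were compared at the 11754 hotspots with at least 50 such reads and a DMC1 share. Hotspots were found through DMC1, so positions with H3K4me3 and no DMC1 peak are not among them. With 1 library there is no replicate error, and hotspots are not replicates of a condition. The spread over the 19 autosomes is given in its place, and no p-value. The samples are whole testis, in which fewer marked cells and less mark per cell cannot be told apart.

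The first comparison asks how far the DMC1 signal follows the amount of the PRDM9 mark. It rose with H3K4me3 for every allele, with a wide spread around the trend. At the 4484 Hum hotspots with ChIP reads Spearman's rho was 0.464 (0.380 to 0.611 across the autosomes) and Pearson's r of the log2 values 0.458. At the 9243 SPRT hotspots rho was 0.498 (0.393 to 0.583) and r 0.492. A doubling of the H3K4me3 ratio went with a change of 0.54 in log2 DMC1 at Hum (0.42 to 0.81 across the autosomes) and of 0.66 at SPRT hotspots (0.52 to 0.84). Both slopes are below 1, so the DMC1 signal grew less than in proportion to the mark along the least-squares line. Since both readouts carry error, that line is the shallowest of the possible ones. The standardized-major-axis line, which treats them alike, had a slope of 1.19 at Hum and 1.35 at SPRT hotspots. The SPRT slope was the steeper on 16 of the 19 autosomes, by 0.12 over all of them (SD of the difference across autosomes 0.09). H3K4me3 took up 21.0% of the variance of log2 DMC1 at Hum and 24.2% at SPRT hotspots. The residual SD was 0.96 at Hum hotspots, a factor of 1.95, and 1.10 at SPRT hotspots, a factor of 2.15.

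Unassigned hotspots had a rho of 0.573 and a slope of 0.53 (n = 1922), and KO hotspots a rho of 0.328 and a slope of 0.19 (n = 75). In the 2 other hybrids SPRT hotspots had a rho of 0.538 (slope 0.74, n = 9246) beside the B6 allele and of 0.415 (slope 0.45, n = 5123) beside the CAST allele. The value in Hum/SPRT lies between them, and each rests on 1 DMC1 library.

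**Figure D1:**
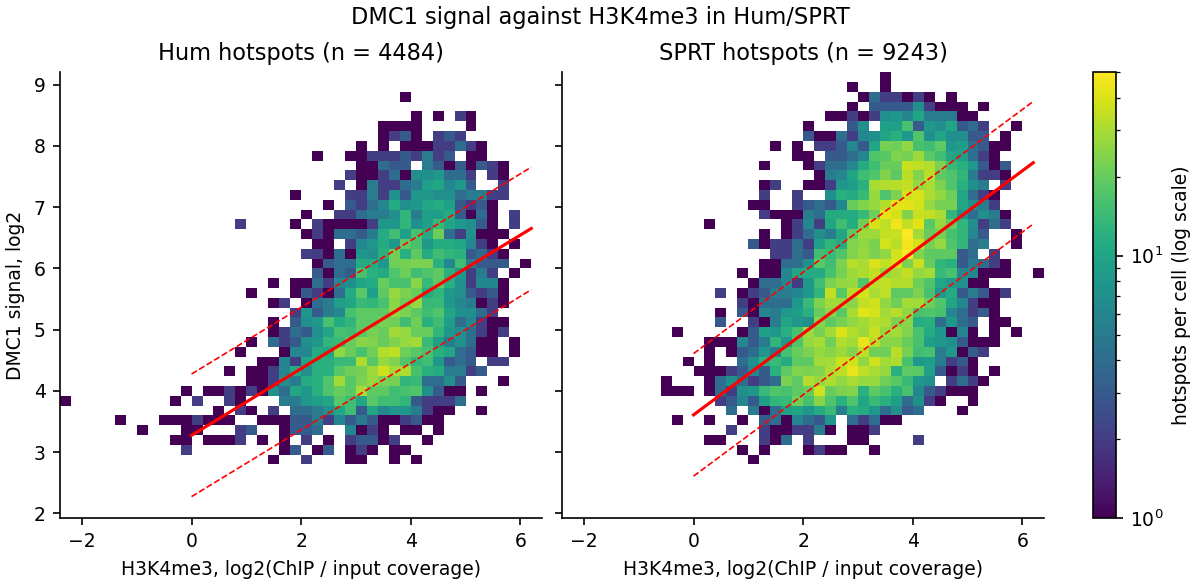
DMC1 signal (log2) against H3K4me3 (log2 of ChIP over input coverage) at the Hum and SPRT hotspots of Hum/SPRT. The color of a cell is its number of hotspots on a log scale, the solid red line is the least-squares line of the allele (slopes 0.54 and 0.66) and the dashed lines lie 1 above and below it. The cloud rises with H3K4me3 and is wide at any level of the mark.

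At like H3K4me3 the SPRT hotspots carried more DMC1 than the Hum hotspots. When all hotspots were put into 5 groups of equal size by the H3K4me3 ratio, the median DMC1 signal of the lowest group (ratio up to 5.89) was 25.6 at SPRT and 19.2 at Hum hotspots, a quotient of 1.33. In the middle group (9.15 to 12.9) it was 62.1 at SPRT and 30.2 at Hum hotspots, a quotient of 2.06. In the highest (above 18.1) it was 106 and 58.6, a quotient of 1.81. The quartiles overlap in each group, with 20.6 to 52.2 at Hum and 31.6 to 117 at SPRT hotspots in the middle one. The median of log2 DMC1 minus log2 H3K4me3, called DMC1 per H3K4me3 below, was 2.49 at SPRT and 1.61 at Hum hotspots. The gap of 0.89 is a factor of 1.85, and SPRT was the higher on 19 of 19 autosomes (gaps of 0.71 to 1.18). The value was 2.13 at unassigned hotspots and 3.11 at the 75 KO hotspots, whose H3K4me3 ratio was low.

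The second comparison asks whether the homolog that carries the mark is the homolog that is cut. It was, for nearly every hotspot whose mark had a clear side. The reverse was looser. Among hotspots cut mainly on SPRT, 426 Hum and 431 SPRT hotspots had 25 to 75% of the mark from B6, against 185 and 322 marked mainly on SPRT. Among those cut mainly on B6 the counts were 165 and 501, against 1089 and 3840 marked mainly on B6. The B6 share of DMC1 followed that of H3K4me3 with a rho of 0.927 at 3293 Hum hotspots (0.901 to 0.946 across the autosomes), 0.919 at 7353 SPRT hotspots (0.891 to 0.935) and 0.843 at 1102 unassigned hotspots (0.713 to 0.923). These values are far above those for the amounts. Of the 1130 Hum hotspots with over 75% of H3K4me3 from B6, 1089 (96.4%, 95% Wilson interval 95.1 to 97.3%) also had over 75% of DMC1 from B6, and of the 187 with under 25%, 185 were cut on the SPRT side. At SPRT hotspots this held for 3840 of 3904 on the B6 side and for 322 of 337 on the SPRT side. A single Hum hotspot lay on opposite sides, 42.9 kb from Qpct on chromosome 17 at position 79133290, with 76.0% of H3K4me3 (454 reads, interval 71.8 to 79.7%) but 21.4% of DMC1 from B6. There was none among the SPRT hotspots, and 1 among the unassigned.

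The listed DMC1 shares were more one-sided than those of the mark. Whether background reads were taken out of the H3K4me3 share is not stated, and the depth of the DMC1 share is unknown. Their part in this difference was not tested. The B6 share of DMC1 lay farther from 50% than that of H3K4me3 at 76.3% of Hum hotspots (interval 74.8 to 77.7%), 81.4% of SPRT hotspots (80.4 to 82.2%) and 81.4% of unassigned hotspots. On the scale of log2 odds, on which a share of 50% is 0, the slope of DMC1 on H3K4me3 was 1.44 at 3264 Hum hotspots (1.37 to 1.54 across the autosomes) and 1.55 at 7236 SPRT hotspots (1.48 to 1.64). Where 75 to 90% of H3K4me3 came from B6, the median DMC1 share was 91.2% at Hum and 93.5% at SPRT hotspots, against median H3K4me3 shares of 85.0% and 84.8%. Where 10 to 25% came from B6, the median DMC1 shares were 7.14% and 9.26%, against H3K4me3 medians of 17.6% and 18.4%.

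Evenly marked hotspots, with 40 to 60% of the mark from B6, were not cut evenly on the whole, and leaned toward SPRT. Over the wider matched range below, the classes leaned that way at Hum hotspots and not at SPRT hotspots. Whether mapping to mm10 shifts either share was not tested. Between 40 and 60% of H3K4me3 from B6 the median DMC1 share was 37.6% at Hum hotspots (quartiles 28.2 and 48.2%, n = 1160) and 41.2% at SPRT hotspots (31.4 and 50.5%, n = 1521), where the medians of the mark were 51.7% and 53.7%. On the least-squares line an even split of DMC1 stood at 57.4% of H3K4me3 from B6 for Hum and at 55.2% for SPRT hotspots. Of the 1976 Hum hotspots that are matched by the mark, with 25 to 75% of it from B6, 426 (21.6%, interval 19.8 to 23.4%) were cut mainly on SPRT, 165 (8.35%, 7.21 to 9.65%) mainly on B6, and 1385 (70.1%) on both. Of the 3112 SPRT hotspots matched by the mark, 431 (13.8%, 12.7 to 15.1%) were cut mainly on SPRT, 501 (16.1%, 14.8 to 17.4%) mainly on B6, and 2180 (70.1%) on both. Class by class, 80.7% of Hum, 86.3% of SPRT and 74.7% of unassigned hotspots fell in the same class by both readouts. The shares differed by at most 10 percentage points at 53.6% of Hum and 63.5% of SPRT hotspots. The DMC1 share lay inside the 95% Wilson interval of the H3K4me3 share at 20.2% of Hum and 16.5% of SPRT hotspots, so counting error of the mark alone is smaller than most of the differences, while that of DMC1 is unknown.

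**Figure D2:**
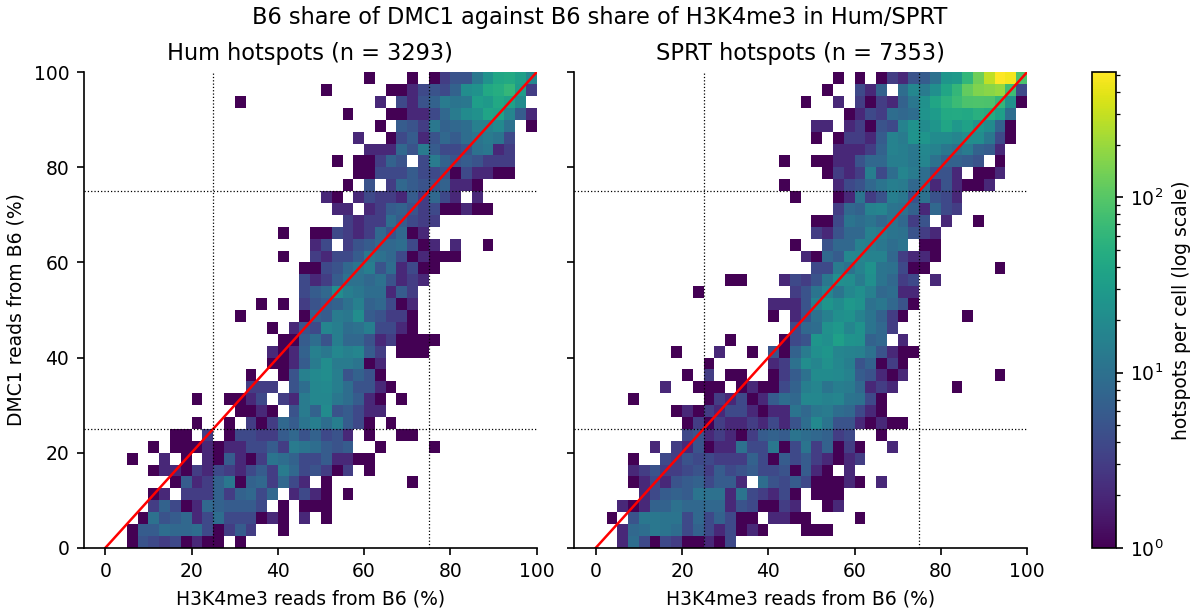
Percentage of DMC1 reads from B6 against percentage of H3K4me3 reads from B6 at the Hum and SPRT hotspots with at least 50 SNP-carrying H3K4me3 reads. The color of a cell is its number of hotspots on a log scale, the red line marks equal shares, and dotted lines stand at 25 and 75%. The hotspots follow a curve that is steeper than the line of equality in the middle and crosses it above 50% of H3K4me3 from B6.

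Splitting each signal by its B6 share gave a DMC1 level and an H3K4me3 level for each homolog. Within a homolog the levels were closer than the totals. Spearman's coefficient was 0.616 on the B6 homolog and 0.795 on the SPRT homolog at Hum hotspots (n = 3264), and 0.666 and 0.782 at SPRT hotspots (n = 7236), against 0.464 and 0.498 for the totals. The coefficients of the totals rest on the larger sets of 4484 Hum and 9243 SPRT hotspots. The levels of the homologs share the total of their hotspot, which enters both sides. They also hold the B6 shares, which follow each other closely between the readouts. A coefficient above that of the totals therefore follows in part from the split itself. In a line with H3K4me3 of both homologs, DMC1 of the B6 homolog at Hum hotspots rose by 0.94 on the log2 scale for each doubling of the mark on B6 (0.84 to 1.06 across the autosomes) and changed by -0.32 for each doubling on SPRT (-0.40 to -0.22). DMC1 of the SPRT homolog had coefficients of 1.10 for the mark on SPRT and -0.55 for the mark on B6. At SPRT hotspots the coefficients were 1.11 and -0.40 for the B6 homolog and 1.09 and -0.52 for the SPRT homolog. The coefficient of the other homolog was negative on 19 of 19 autosomes in each of these cases. That sign follows largely from the shallow slope of the totals and the steep slope of the log2 odds given above. The count over autosomes is therefore not a separate result. The lines with H3K4me3 of both homologs took up 52.7 to 70.5% of the variance at Hum and 61.5 to 68.8% at SPRT hotspots.

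The same order was visible without a line, in groups that rest on the same totals and shares. Hotspots were put into 5 equal groups by the mark on 1 homolog and, inside each, into 3 by the mark on the other. In the middle group for the B6 homolog at SPRT hotspots, the median H3K4me3 level on B6 was 8.12, 8.12 and 8.22 while that on SPRT rose from 0.618 to 1.72 and 6.01. DMC1 on the B6 homolog there was 74.1, 43.0 and 24.3, so 3.05 times as high with the least as with the most mark on the partner. At Hum hotspots the middle group had 7.98, 7.88 and 7.92 on B6 with 0.824, 4.44 and 8.21 on SPRT, and DMC1 on B6 of 26.1, 18.1 and 11.6, a quotient of 2.26. For the SPRT homolog the quotients of the middle groups were 2.51 at Hum and 5.15 at SPRT hotspots. The quotient was above 1 in each of the 20 groups of an allele, homolog and level of the mark, from 1.22 to 5.15. The 2 smallest, 1.22 and 1.27, stood in the lowest groups of the SPRT homolog, where DMC1 medians were from 1.65 to 2.09 and the mark itself was higher with more mark on the partner, at medians of 0.647 to 0.834 for Hum hotspots. In the lowest groups of the B6 homolog its own mark fell as that of the partner rose, from 2.89 to 2.28 at Hum (quotient 3.08) and from 2.49 to 1.71 at SPRT hotspots (quotient 3.64).

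**Figure D3:**
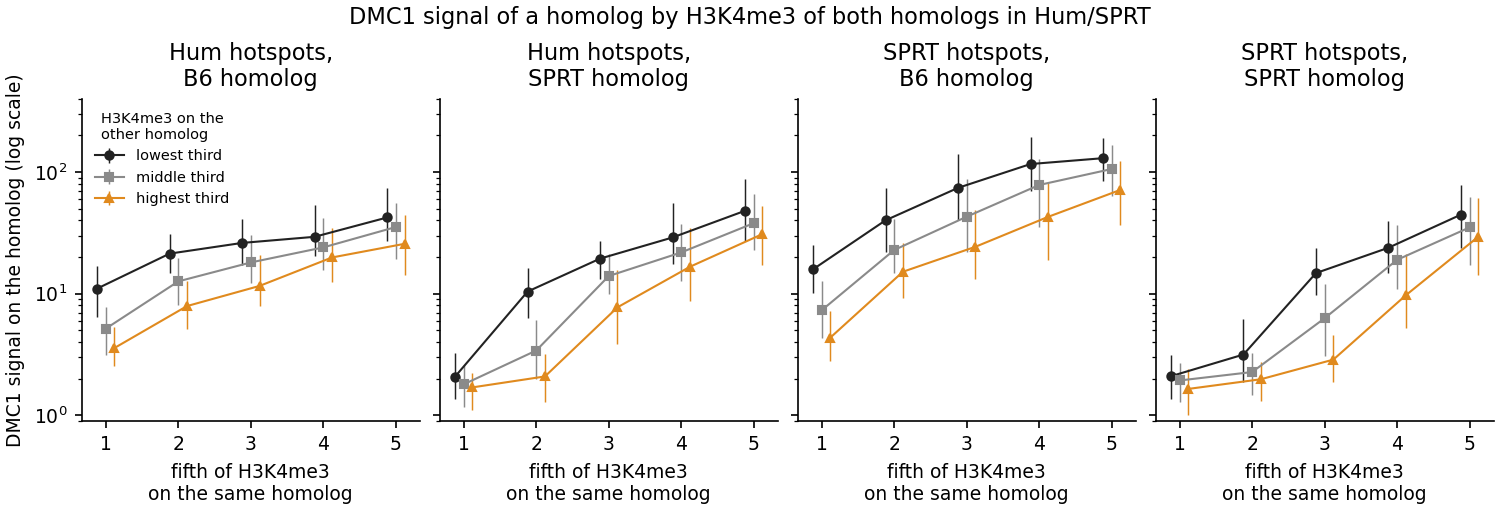
Median DMC1 signal of a homolog (log scale) in 5 equal groups of H3K4me3 on that homolog, drawn apart for the lowest, middle and highest of 3 groups of H3K4me3 on the other homolog. Bars span the quartiles over hotspots. In each panel DMC1 rises along the groups of its own mark, and the black points (least mark on the partner) lie above the orange ones (most).

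The total DMC1 per H3K4me3 also went with the side of the mark. At SPRT hotspots it was lowest between 40 and 60% from B6, with a median of 2.12 (quartiles 1.34 and 2.85), and higher at both ends, with 2.98 (2.21 and 3.73) above 90% and 2.84 (2.30 and 3.70) below 10%. At Hum hotspots the low stretch ran from 40 to 75%, with medians of 1.42 and 1.35, and the end below 10% stood far above the end beyond 90%, at 2.94 against 1.79, though only 15 hotspots lie below 10%. For the 187 Hum hotspots marked under 25% from B6 the median DMC1 signal was 54.4 at a median ratio of 10.3, and for the 1130 marked over 75% from B6 it was 29.6 at a ratio of 10.4. The medians per H3K4me3 were 2.45 and 1.63. At SPRT hotspots the corresponding values, 2.65 on the SPRT side (n = 337) and 2.73 on the B6 side (n = 3904), lay close together.

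The level of the mark enters here, since DMC1 per H3K4me3 was lower where H3K4me3 was higher. Within the 5 groups of equal H3K4me3, hotspots outside the matched range exceeded matched ones by 0.21 to 0.87 at SPRT hotspots, with the largest gap in the middle group (2.91 against 2.04), and by 0.07 to 0.25 at Hum hotspots. Without regard to the level of the mark the gap was 0.53 at SPRT hotspots (0.14 to 0.79 across the autosomes, positive on 19 of 19) and 0.29 at Hum hotspots (-0.24 to 0.67, positive on 16). Within the 5 groups, the sides differed at Hum hotspots. From the lowest to the highest, medians of matched ones were 2.26, 1.61, 1.39, 1.34 and 1.12. Those outside the range on the B6 side lay near these, at 2.22, 1.78, 1.37, 1.35 and 1.15. They were lower than matched ones in the lowest and middle groups. Those on the SPRT side lay higher, at 2.52, 2.38, 2.47, 2.60 and 1.95, on 23 to 48 hotspots per group. Adding the distance of the H3K4me3 share from 50%, as the size of its log2 odds, to the line on H3K4me3 raised the variance taken up from 23.3 to 30.8% at SPRT hotspots and from 19.5 to 19.8% at Hum hotspots.

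**Figure D4:**
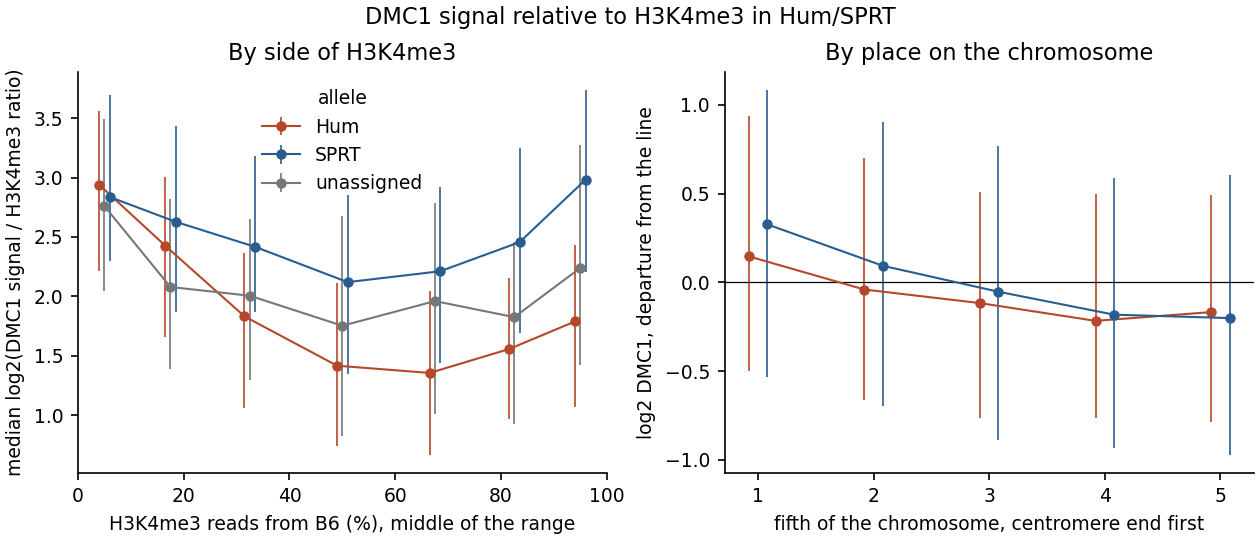
Left, median DMC1 per H3K4me3 (log2 of the DMC1 signal over the coverage ratio) by the percentage of H3K4me3 reads from B6, for Hum, SPRT and unassigned hotspots. Right, departure of log2 DMC1 from the line of the allele in 5 stretches of the chromosome from the centromere end. Points are medians and bars span the quartiles over hotspots. The curve of the SPRT hotspots is lowest near an even mark (2.12) and the Hum curve is highest below 10% from B6 (2.94), and departures fall from the centromere end to the far end by less than their quartile range.

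Departures from the line of an allele were counted beyond 1 on the log2 scale, a factor of 2. Over all 15724 hotspots with a ratio, 18.1% lay more than 1 above and 17.7% more than 1 below. For Hum these were 701 hotspots (15.6%) above and 650 (14.5%) below, for SPRT 1814 (19.6%) and 1865 (20.2%), for unassigned 323 (16.8%) and 268 (13.9%), and for KO 5 and 2 of 75. The lines were fitted to these same values, so the counts restate the residual SD. For the share, a B6 share of DMC1 more than 25 percentage points above that of H3K4me3 was seen at 1.02% of the 11754 hotspots with both, and one more than 25 points below at 5.86%. Hum hotspots passed these limits in 16 cases (0.486%) above and 260 (7.90%) below, SPRT hotspots in 72 (0.979%) and 339 (4.61%), and unassigned hotspots in 30 (2.72%) and 90 (8.17%). The counts were thus higher toward SPRT in DMC1 in these 3 classes. A hotspot with over 75% of its mark from B6 cannot pass the upper limit, and one under 25% cannot pass the lower. Over 75% stood 3904 of 7353 SPRT, 1130 of 3293 Hum and 173 of 1102 unassigned hotspots. Under 25% stood 337, 187 and 474. The counts at SPRT and Hum hotspots therefore rest in part on this bound. The median difference was 2.76 points at SPRT, -4.03 at Hum and -5.54 at unassigned hotspots.

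The Hum hotspot farthest above its line, on chromosome 10 at position 17565320 within the lncRNA gene Gm32543, was also the strongest Hum hotspot, with a DMC1 signal of 422 at a ratio of 14.0 (ChIP 517, input 37). The line gives 40.7 there, so the signal was 10.4 times as high. Its mark was 56.7% from B6 (interval 53.0 to 60.3%) and its DMC1 39.9%. The next were on chromosome 14 at position 114448617, 138 kb from Gm19829, with 218 at a ratio of 4.85, and within Capza2, which encodes a subunit of the actin capping protein, on chromosome 6 at position 17639953, with 321 at a ratio of 11.4. Neither has a listed DMC1 share. Below the line, the hotspot on chromosome 7 at position 36993612, 32.2 kb from Gm36464, had a DMC1 signal of 7.65 at a ratio of 18.0, where the line gives 46.7. The hotspot within Plekhh3 on chromosome 11 at position 101168592 had 13.3 at a ratio of 36.9, and that on chromosome 8 at position 90790951, 25.2 kb from Gm19935, had 7.56 at 12.9. The largest Hum ratio with an input of at least 10, 69.8 (768 over 11), was within Hlcs, the gene of holocarboxylase synthetase, on chromosome 16 at position 94176872, with a DMC1 signal of 64.9 against 97.7 on the line.

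The 3 SPRT hotspots farthest above the line had 98.3 to 99.4% of DMC1 and 81.7 to 97.2% of H3K4me3 from B6. On chromosome 15 at position 24887508, 66.8 kb from Gm22810, the DMC1 signal was 500 at a ratio of 7.34, which is 10.9 times the 45.8 of the line, with 99.4% of DMC1 and 97.2% of H3K4me3 (541 reads) from B6. Within Fgf10, a growth factor gene, on chromosome 13 at position 118748595 it was 376 at 5.48, with 99.3% and 94.3%. Within Abi1, an actin regulator, on chromosome 2 at position 22954374 it was 247 at 2.94, with 98.3% and 81.7%. The strongest SPRT hotspot of all lay within Tmem144 on chromosome 3 at position 79812956, with a DMC1 signal of 528 at a ratio of 10.6 and with 99.1% and 87.2% from B6. The 3 farthest below had ratios well above the median. Within Pde6a, a rod phosphodiesterase gene, on chromosome 18 at position 61256691 the DMC1 signal was 12.9 at a ratio of 30.9, and the line gives 119. A hotspot 0.792 kb from Gbp10, a guanylate-binding protein gene, on chromosome 5 at position 105240325 had 9.44 at 18.4. One 0.330 kb from the start of Svep1, which encodes an extracellular adhesion protein, on chromosome 4 at position 58206926 had 14.8 at 35.7 and was even by both readouts, with DMC1 split evenly and 53.1% of H3K4me3 from B6. The largest ratio among SPRT hotspots, 81.4 (1872 over 23), was found 3.11 kb from Fgfr4, a growth factor receptor gene, on chromosome 13 at position 55171873, with a DMC1 signal of 58.0 against 226 on the line.

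A difference of share past 50 percentage points was found at 1 Hum hotspot with a surplus of B6 in DMC1 and 2 with a deficit, and at 0 and 4 SPRT hotspots. The 3 largest of each direction are given. For Hum, the hotspot within Clstn1, a synaptic calsyntenin gene, on chromosome 4 at position 149607308 had 93.7% of DMC1 but 31.2% of 1089 H3K4me3 reads from B6. That 9.92 kb from the lncRNA gene Malat1 on chromosome 19 at position 5785774 had 97.1% against 52.5%, and that 0.505 kb from Smim40-ps on chromosome 17 at position 33874621 had 100% against 60.1%. In the other direction, the hotspot within the kinase gene Mast4 on chromosome 13 at position 103295466 had 14.6% against 71.7%, the hotspot near Qpct described above came next, and that 4.28 kb from Gm3375 on chromosome 7 at position 3186235 had 22.8% against 70.2%. For SPRT, the hotspot with the largest surplus of B6 in DMC1 lay within Tmem53 on chromosome 4 at position 117258842, with 94.9% against 49.2%. The next lay within Cfap36, a cilia gene, on chromosome 11 at position 29245962, with 98.2% against 56.0%. The last lay within Acad12, an acyl-CoA dehydrogenase family gene, on chromosome 5 at position 121617975, with 95.3% against 54.8%. Their centers were 6.50, 1.31 and 0.963 kb from a gene start. Those with the largest deficit lay 12.5 kb from Gm30515 on chromosome 12 at position 27016516, with 36.4% against 93.2%, within Cacng7, a calcium channel subunit gene, on chromosome 7 at position 3352683, with 12.7% against 67.3% of only 98 reads, and 5.25 kb from Rps10-ps3 on chromosome 4 at position 3984043, with 7.22% against 61.3% of 93 reads.

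The unassigned hotspot farthest below its line was that at the Ermp1 start printed above, with a ratio of 70.8 and a DMC1 signal 10.4-fold below the line, and both readouts near even (47.4% of DMC1 and 54.8% of 4180 H3K4me3 reads from B6). The one farthest above, 8.19 kb from Gm52714 on chromosome 4 at position 156081610, had a DMC1 signal of 349 at a ratio of 9.25, and the strongest, within Cdcp1 on chromosome 9 at position 123178057, had 398 at 14.2 with 98.9% and 96.3% from B6. The KO hotspot with the largest signal and departure, on chromosome 15 at position 75086388, had a DMC1 signal of 189 with a ChIP coverage of 23009 and an input coverage of 3324, against a median input of 26 over all hotspots, and only 8 SNP-carrying reads. The part that this coverage has in the values was not tested. The KO hotspot farthest below its line lay within Kmt2e, which encodes a chromatin regulator, on chromosome 5 at position 23435439, with a DMC1 signal of 12.7 at a ratio of 72.3.

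Starts of genes were more frequent among the low departures than among the high ones at SPRT and unassigned hotspots. Chromosome 18, which has no gene starts in the promoter table, was left out. Within 2000 bp of a gene start lay 190 of the Hum hotspots (4.41%), 351 of the SPRT hotspots (3.94%) and 101 of the unassigned hotspots (5.43%). Of the 100 SPRT hotspots farthest below the line 17 did so and of the 100 farthest above none. The counts were 18 and 1 for unassigned and 6 and 2 for Hum hotspots, where the 6 is near the share of all Hum hotspots. Among SPRT hotspots 31.6% of those near a start were more than 1 below the line against 19.9% of those farther away, at median ratios of 14.1 and 10.6. Among unassigned hotspots the shares were 31.7 and 13.3%, and among Hum hotspots 14.2 and 14.7%, which do not differ in that direction. The shares of the readouts were also farther apart near starts, with a median size of the difference of 10.2 against 7.25 percentage points at SPRT, 11.9 against 8.81 at Hum and 15.3 against 8.74 at unassigned hotspots. Leaving out all hotspots within 2000 bp moved rho to 0.503 at SPRT and left it at 0.464 at Hum hotspots.

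Departures also went with the place on the chromosome. Mouse autosomes have their centromere at the start of the coordinates, and each was cut into 5 equal stretches up to its last hotspot. The median departure of SPRT hotspots was 0.33 in the stretch nearest the centromere and -0.20 in the farthest, and that of Hum hotspots 0.15 and -0.17. The first exceeded the last on 16 of 19 autosomes for SPRT and on 17 for Hum, by factors of 1.44 and 1.24 overall. The median H3K4me3 ratio moved the other way, from 9.14 to 11.8 at SPRT and from 10.1 to 13.9 at Hum hotspots, while the median DMC1 signal went from 64.3 to 52.4 at SPRT and from 35.1 to 33.9 at Hum hotspots. The quartiles in the stretch nearest the centromere were -0.53 and 1.08 at SPRT and -0.50 and 0.94 at Hum hotspots, a spread far wider than the gap between stretches. Added to the line after H3K4me3 and sidedness it raised the variance taken up from 30.8 to 32.3% at SPRT and from 19.8 to 20.9% at Hum hotspots.

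The departures of SPRT hotspots were found again in libraries of the other hybrids. Of the 9243 SPRT hotspots, 9128 had an SPRT hotspot of B6/SPRT within 500 bp and 5028 one of CAST/SPRT. The departure in Hum/SPRT and that from the line of the other hybrid had a rho of 0.908 in B6/SPRT (n = 9127) and of 0.881 in CAST/SPRT. The DMC1 signal itself had a rho of 0.964 and 0.921 with these hybrids, and H3K4me3 one of 0.876 and 0.864. The repeat is thus not particular to the departure. The animals share the SPRT allele and both homologs, and not their libraries. Of 1778 hotspots more than 1 above the line here, 73.8% were more than 1 above it in B6/SPRT as well, against 17.3% of all shared hotspots, and of 1860 below, 65.2% were below there, against 17.6%. CAST/SPRT listed fewer SPRT hotspots, among them 1715 that are more than 1 above the line here and 173 that are more than 1 below, so its set is tilted to the strong ones. Of the 1715, 43.4% were more than 1 above its own line, against 15.0% of all shared hotspots, and 93.8% were above it at all. Of the 173, 90.2% were more than 1 below, against 14.6%. The differences of share repeated less closely, with a rho of 0.786 over 6877 hotspots in B6/SPRT and of 0.597 over 3854 in CAST/SPRT.

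Single hotspots repeated likewise. At the 3 SPRT hotspots farthest above the line, on chromosomes 15, 13 and 2, the departures here were 3.45, 3.32 and 3.31, those in B6/SPRT 2.46, 3.21 and 3.0, and those in CAST/SPRT 2.56, 2.44 and 2.06. The 3 farthest below, at Pde6a, Gbp10 and Svep1, departed by -3.20, -3.16 and -3.14 here and by -2.55, -3.22 and -2.67 in B6/SPRT, and had no counterpart among the SPRT hotspots of CAST/SPRT. The share differences at Tmem53, Cfap36 and Acad12 were 45.6, 42.2 and 40.5 percentage points here and 56.8, 45.9 and 40.1 in B6/SPRT. At Cfap36 the difference was 43.1 in CAST/SPRT. Near Gm30515, at Cacng7 and near Rps10-ps3 they were -56.9, -54.6 and -54.1 here and -67.8, -57.1 and -50.9 in B6/SPRT. Over the shared hotspots with a surplus of more than 25 points here (n = 67 in B6/SPRT) the median was 29.8 here and 29.3 there, and over those with such a deficit (n = 292) -29.6 and -26.9.

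**Figure D5:**
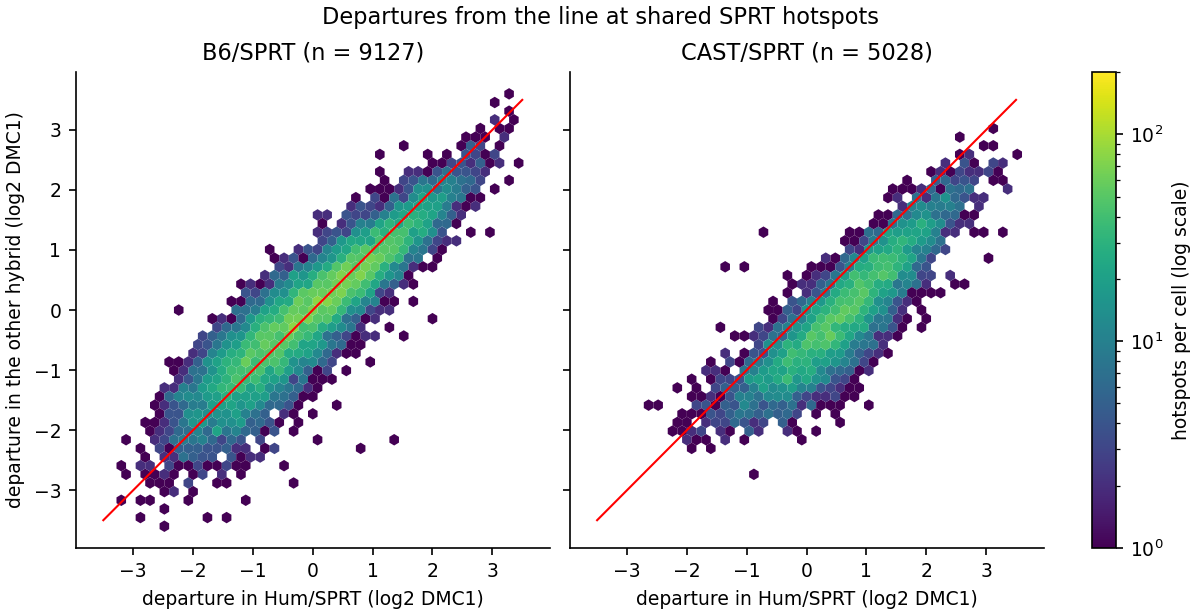
Departure of log2 DMC1 from the line on H3K4me3 at SPRT hotspots of Hum/SPRT (horizontal) and at the same hotspots in B6/SPRT or CAST/SPRT (vertical), each from the line of its own genotype. The color of a cell is its number of hotspots on a log scale and the red line marks equality. The hotspots lie along the line in B6/SPRT (rho 0.908) and below it in CAST/SPRT (rho 0.881), where only 173 hotspots more than 1 below the line here were called.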

How the data were processed

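The study mapped reads to mm10 with BWA, per the labels, identified single-stranded fragments, called hotspots without a prior list, and assigned alleles by comparison with other mice and reads to homologs by SPRET/EiJ SNPs. The deposited table gives a DMC1 signal of the authors' caller (scaling to depth not stated), the fraction of DMC1 reads from B6, raw counts of coverage in ChIP and in input, an enrichment ratio made by the authors (formula not stated), and the fraction of H3K4me3 reads from B6 with its number of reads. The H3K4me3 columns were taken as pooled over samples. A further 17 columns (p-values, marks of sharing and the values of the STUS tables) were not used here.

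Shares, lines on log2 values and ranks were computed in Python (version 3.11.15) using numpy (2.4.6), pandas (2.3.3) and scipy (1.17.1), figures were drawn in matplotlib (3.10.9), and the steps were tested on simulated data. Wilson intervals are at 95% and cover counting error only. Hotspots were named by rule: for Hum and SPRT the 3 largest departures (input of 10 or more) and the 3 largest share differences (50 reads or more) in each direction, and the largest signal and ratio; for other classes with 20 hotspots or more the largest departures and signal. The hotspot on opposite sides, and those at promoters, were named after their values were seen. Genes are the nearest of GRCm38.p6. Hotspot members, lists and comparisons were chosen with earlier results of these data known.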

Additional observations from a re-analysis of the deposited data

How the results depend on the processing

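Of 100 values recomputed under alternatives, 80 stayed within the spread over autosomes, the Wilson interval or, for counts, 1.5 times, 20 moved, and none changed sign. Values with a single autosome left out could hardly leave the spread over autosomes. Counts and percentages cannot change sign. Using ChIP coverage without the input raised rho of DMC1 and H3K4me3 from 0.464 to 0.547 at Hum and from 0.498 to 0.585 at SPRT hotspots, and the SPRT slope from 0.66 to 0.80. Keeping DMC1 signals of 20 or more, farther from the limit of calling, lowered rho to 0.355 and 0.426 and the slope to 0.39 and 0.53 at Hum and SPRT hotspots, raised the Hum slope of log2 odds to 1.5 and gave 87.2% of SPRT hotspots in the same class. That percentage was 88.0% with 200 SNP-carrying reads or more and 76.8% with class limits of 10 and 90%. Moving shares into 1 to 99% changed the SPRT coefficient of its own homolog from 1.09 to 1.06. A limit of 2 on the log2 scale left 139 Hum hotspots above and 22 below the line, and 310 and 237 SPRT hotspots. A limit of 50 percentage points left 1 Hum hotspot with a surplus of B6 and 2 with a deficit, and 0 and 4 SPRT hotspots. The cause of the moves was not tested, beyond the smaller sets that the stricter limits leave by construction. The log2-odds slopes, the groups by both homologs, and the counts by gene start, place and promoter window were added after seeing the data. No paired analysis was possible because the genotype has 1 DMC1 library and 1 H3K4me3 column, so no result comes from a test between samples. The depth of the DMC1 shares is unknown, which leaves single differences without an error.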

Other observations

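The X chromosome, which males inherit here from the B6 mother, gave a measure of how reads of B6 origin were assigned. It has no SPRT homolog in these males, so the loss or wrong assignment of SPRT reads cannot be seen there. Over 628 X hotspots with at least 50 SNP-carrying reads, 178609 of 178797 H3K4me3 reads (99.9%) were assigned to B6. The B6 share of DMC1 was 100% at 541 of 632 X hotspots (85.6%), with a lowest value of 33.3%.

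Hotspots without a listed B6 share of DMC1 were more often matched by the mark. At Hum hotspots 958 of 1131 without a share (84.7%, 95% Wilson interval 82.5 to 86.7%) had 25 to 75% of H3K4me3 from B6, against 1976 of 3293 with a share (95% Wilson interval 58.3 to 61.7%). At SPRT hotspots the shares were 81.2% (n = 1817) and 42.3% (n = 7353), and at unassigned hotspots 69.9% (n = 681) and 41.3% (n = 1102). Comparisons of the shares therefore hold a smaller share of evenly marked hotspots than the table as a whole. Their departures from the line were near those of the others, with medians of 0.02 and -0.12 at Hum and of -0.12 and 0.00 at SPRT hotspots.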
